A study of Mus musculus with 9 samples.

Results

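The comparison described here sets 1 array of mouse bladder with a tumour that had received 8.5 mM alpha1-oleate against 1 array of tumour bladder that had received PBS (sham). Both are of experiment 1, so 2 of the 9 arrays of the series are used. The 2 arrays were picked by their titles, with earlier results of these data known. All mice were C57BL/6J females. The bladders of the tumour groups were coated with poly-L-lysine and then given MB49 cells, a carcinoma line from a mouse bladder, on day 0. Alpha1-oleate at 1.7, 8.5 or 17 mM was put into the bladder every other day from day 3 to day 11, the sham group received PBS, and the bladders were taken on day 12. Experiment 1 also holds the arrays of the 1.7 and 17 mM groups and of a healthy bladder, and experiment 2 holds a second sham-treated tumour, a second healthy PBS bladder and healthy bladders taken 24 h and 7 days after 17 mM. Tumour and treated bladders are whole organs, so each array mixes MB49 cells with urothelium, muscle, connective tissue and leukocytes. Fewer cells of a type and less RNA per cell cannot be told apart in such samples. The labels do not say how many animals an array represents, and they give no ages.

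Alpha1-oleate is a complex of an alpha-helical peptide of the milk protein alpha-lactalbumin with the fatty acid oleate, and it belongs to a family of protein and lipid complexes that kill tumour cells. The healthy bladder is lined by urothelium, whose umbrella cells carry plaques of uroplakins, above intermediate and basal cells. Under it lie a layer of fibroblasts and vessels and the detrusor, the smooth muscle that empties the organ. A growing MB49 tumour adds dividing carcinoma cells and leukocytes to this tissue.

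Values are log2 signals normalized by RMA, so a difference of 1 is 2-fold. With 1 array on each side the difference has no replicate check, and "higher" or "lower" below means at least 2-fold unless a value is given. A separate limma fit over all 9 arrays, with the experiment as a block, took its spread from the PBS arrays alone (2 healthy and 2 sham, 1 residual degree of freedom), and assumed that the lone 8.5 mM array varied as they did. "Rose" and "fell" are kept for genes with limma adjusted p under 0.05. With the block, the spread behind these p-values is only the change of sham minus healthy between experiments 1 and 2, which may be technical. Of the 11969 genes above the filter on low signal, 1220 were higher (10.2%) and 473 lower (3.95%) at 8.5 mM. By limma 1315 rose (11.0%) and 557 fell (4.65%), with a smallest adjusted p of 0.0253, and 1077 of the higher and 277 of the lower genes were among them. With all arrays quantile-normalized together, and also without the replicate block, limma called more genes up than down. The size of this excess depended on scaling and model. Without the block most of the falling genes were no longer called. Among them were the falling genes named below from the mitosis, DNA replication, ERK and hypoxia lists, while Lcn2 and Trib3 were still called. Median signals of the experiment 1 arrays lay between 4.42 and 4.45, and the median difference over all genes was -0.06. 1 array went against its label: the array labelled healthy, 24 h after 17 mM, carried transcripts that both healthy PBS arrays lacked, such as Mki67 at 6.83 against 3.72 and 3.41, Prkg2 at 6.27 against 3.31 and 3.21, and Gm4836 at 4.67 against 2.65 and 2.51. In the fit it is a group of its own and cannot change the 8.5 mM comparison, except through the choice of probe sets and the filter.

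Pcp4, a regulator of calmodulin, had the largest difference. It read 9.85 in the healthy array, 5.05 in the sham array, 8.79 at 1.7 mM, 10.78 at 8.5 mM and 11.05 at 17 mM. The sham array was the low one among the 5, and the 8.5 mM array lay 5.73 above it and 0.93 above the healthy array (limma difference 6.16, SE 0.64, adjusted p = 0.0294). Inmt, a methyltransferase of small amines, differed by 3.86, Acaa1b, a peroxisomal thiolase, by 3.77, Pcolce2, an enhancer of procollagen processing, by 3.71, and Fmo2, a flavin-containing monooxygenase, by 3.69. Uchl1, a ubiquitin hydrolase of nerve cells, Rbfox3, a neuronal splicing factor, and Clec3b, the plasminogen-binding protein tetranectin, each differed by 3.63. Kcnf1, a potassium channel subunit, differed by 3.46, C1qtnf3, a secreted protein with a C1q domain, by 3.45, and Cldn8, a tight-junction claudin, by 3.44. All of these rose by limma, with adjusted p between 0.0253 and 0.0341. Alb, the other gene of the 12 highest, is described with the liver transcripts.

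**Figure D1:**
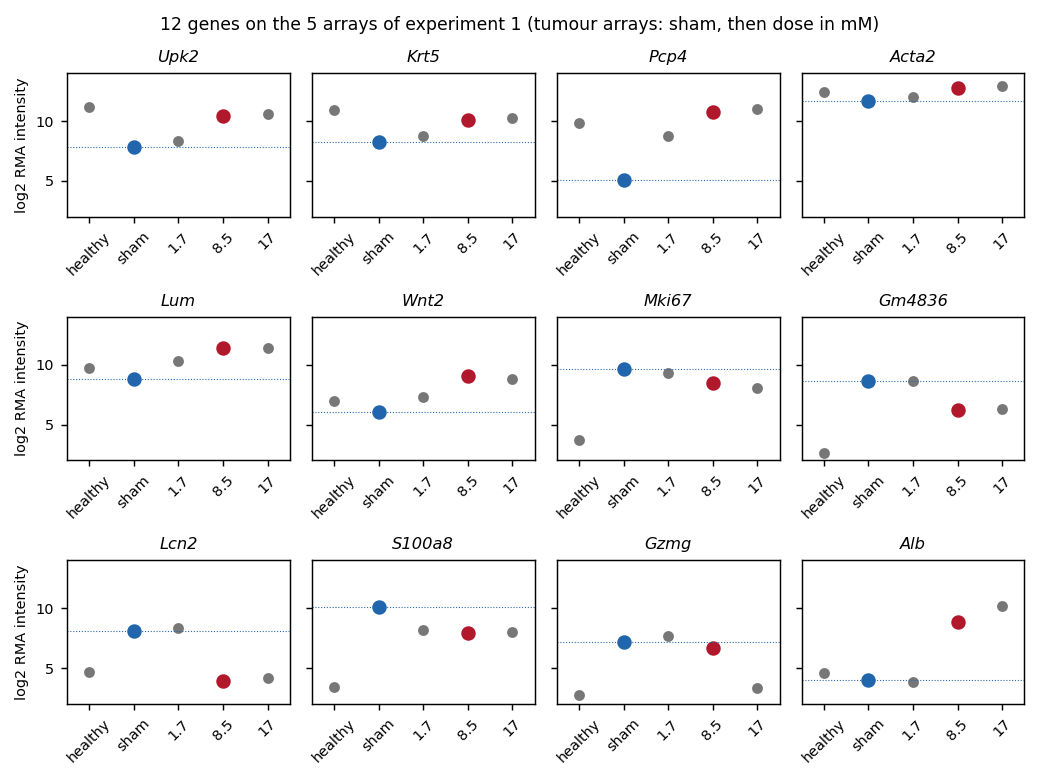
Log2 signal of 12 genes on the 5 arrays of experiment 1 (1 point an array, so no error can be drawn; blue sham with a dotted line at its level, red 8.5 mM, x axis in mM for the treated tumours). The 8.5 and 17 mM points lie close to each other for most of them, as for Upk2 (10.40 and 10.56 against 7.80 for sham), and apart for Gzmg (6.66 and 3.34).

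Urothelial transcripts were higher at 8.5 mM than in the sham array. Of the 17 umbrella cell and plaque genes, 13 were higher and none lower, the same number rose by limma, and the median difference was 2.18. Upk2, a uroplakin of the apical plaque, read 11.22 in the healthy array, 7.80 in the sham array, 8.33 at 1.7 mM, 10.40 at 8.5 mM and 10.56 at 17 mM (8.5 mM against sham 2.60; limma SE 0.12, adjusted p = 0.0253). The 8.5 mM level lay between those of sham and healthy. Besides Cldn8, the largest differences were those of Snx31, a sorting nexin of umbrella cells that handles uroplakins (2.93), Upk3b (2.87), Krt20, the keratin of mature umbrella cells (2.73), and Upk3a (2.65), and all 4 rose. None of the 17 stood above both the sham and the healthy array.

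The transcription factors and splicing regulators of urothelial differentiation followed, with 9 of 13 higher, 9 rising by limma and a median difference of 1.39. Pparg, the nuclear receptor that drives urothelial differentiation, read 9.20 in the healthy array, 5.59 in the sham array, 6.49 at 1.7 mM, 8.26 at 8.5 mM and 8.53 at 17 mM. Its order across the arrays was that of Upk2. Ehf, an ETS factor of epithelia, differed by 2.53, Grhl3, a factor of terminal differentiation, by 2.52, Foxa1, a pioneer factor of luminal cells, by 2.07, and Esrp1, an epithelial splicing factor, by 2.03. Probe sets of Ehf above the filter ranged from -0.18 to 2.53. Of the 14 adhesion genes of epithelium 9 were higher, 8 rose and the median was 1.5. They were led by the desmosomal cadherin Dsg2 (2.63), the tight-junction proteins Marveld3 (2.2) and Cldn7 (2.08), desmoplakin, Dsp (2.06), and E-cadherin, Cdh1 (1.85). Cldn3, another claudin, went the other way, from 6.72 in the sham array to 5.36 at 8.5 mM with 4.66 in the healthy array (limma adjusted p = 0.109).

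Basal urothelial genes were divided. Of 14, 4 were higher and none lower, 4 rose, 2 fell and the median was 0.10, or 0.88 against the sham array of experiment 2. Krt5, the basal keratin, read 10.93 in the healthy array, 8.22 in the sham array, 8.73 at 1.7 mM, 10.13 at 8.5 mM and 10.28 at 17 mM (8.5 mM against sham 1.91; limma adjusted p = 0.0480). Perp, a desmosomal protein and p53 target, differed by 2.55, Trp63, the transcription factor of the basal layer, by 2.36, and Krt15 by 1.47, while Itgb4, a hemidesmosome integrin, read -0.95 (limma adjusted p = 0.111). The probe sets of Trp63 ranged from 0.47 to 2.36.

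The detrusor list was the one with the highest share of members past 2-fold. Of its 20 genes 19 were higher, none was lower, 16 rose by limma and the median difference was 2.16. Mrvi1, a partner of cGMP kinase in smooth muscle, read 8.58 in the healthy array, 6.00 in the sham array, 7.28 at 1.7 mM, 9.02 at 8.5 mM and 9.46 at 17 mM. The 8.5 mM level of this gene was above the healthy level, and the same held for each of the 20, by 0.02 to 0.58 (median 0.40), whereas 15.1% of all genes lay above both arrays. Pgm5, a protein of adherens junctions in muscle, differed by 2.89 and Lmod1, the smooth muscle leiomodin, by 2.83. Ldb3, a Z-disc protein, differed by 2.72 (its probe sets by 0.09 to 2.72) and Synpo2, an actin-binding podin, by 2.64. Of the contractile proteins, the smooth muscle myosin Myh11 differed by 2.29, the intermediate filament protein Des by 1.27 and calponin, Cnn1, by 1.53 (limma adjusted p = 0.0536 for Cnn1). Acta2, the smooth muscle actin, went from 11.69 in the sham array and 12.46 in the healthy array to 12.75 at 8.5 mM, a difference of 1.06 (limma adjusted p = 0.0483, and 0.131 without the replicate block). Myocd, the coactivator that turns on contractile genes through serum response factor, differed by 2.47.

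Serum response factor binds the CArG box, searched here by that name on both strands in the 250 bases before each gene's start in RefSeq's promoter table (build GRCm38.p6). It was found in 4 of the 16 detrusor genes in that table (25%), in 1.44% of the 9601 genes above the filter and in 1.62% of all 27025 genes. The stretches below are shown because they hold the match in the promoters of detrusor genes, with the box in capitals. Those of Myl9, a myosin light chain (chr2:156775283-156775332, plus strand), Actc1, the cardiac actin (chr2:114052893-114052942, minus strand), Ldb3 (chr14:34588687-34588736, minus strand) and Fhl1, a LIM-domain protein (chrX:56779561-56779610, plus strand) read as follows.
Myl9: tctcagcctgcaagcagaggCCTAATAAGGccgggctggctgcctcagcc
Actc1: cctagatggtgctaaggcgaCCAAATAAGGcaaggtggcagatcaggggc
Ldb3: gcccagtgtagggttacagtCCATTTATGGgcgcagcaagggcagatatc
Fhl1: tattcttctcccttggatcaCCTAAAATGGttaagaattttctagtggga
A match of letters is a description of the sequence and not of binding.

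Striated muscle transcripts were measured as markers of another tissue that a bladder sample can hold. Of 7, 2 were higher, 3 rose and the median was 0.57, which changed to 1.16 against the sham array of experiment 2, 2.41 with the lowest 50% of genes left out and 0.13 with no filter. Ckm, the muscle creatine kinase, differed by 2.99 (its probe sets by 0.04 to 2.99) and Acta1, the skeletal actin, by 1.83, while the fast myosin Myh2 read 0.57 (limma adjusted p = 0.288). The log2 of the summed signal of the list was 10.82 in the healthy, 9.51 in the sham, 11.31 in the 8.5 mM and 11.55 in the 17 mM array, and the part of such tissue in the muscle result was not tested.

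Connective tissue transcripts stood above the sham array and mostly above the healthy one too. Of 21 fibroblast and matrix genes 12 were higher, none lower, 12 rose and the median difference was 1.23, although healthy and sham differed by a median of only -0.03. Lumican, Lum, a proteoglycan that organizes collagen fibrils, read 9.75 in the healthy array, 8.81 in the sham array, 10.28 at 1.7 mM and 11.39 at both 8.5 and 17 mM. All 3 treated arrays thus exceeded both untreated ones. The matrix glycoprotein Fbln1 differed by 2.73, Dpt (dermatopontin) and the fibril-associated collagen Col14a1 by 2.69, and osteoglycin, Ogn, by 2.46. In all, 19 of the 21 were above both arrays, 7 of them by 2-fold. Among matricellular and repair genes 6 of 12 were higher and 5 rose (median 0.85), with Sparcl1 at 2.16, the growth factor Ptn at 2.14, Thbs2 at 1.89, the cytokine receptor subunit Il6st at 1.76 and the TAM receptor ligand Gas6 at 1.10. Probe sets of Ptn ranged from -0.19 to 2.14.

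WNT, BMP and hedgehog regulators, through which bladder stroma and urothelium signal to each other, had 10 of 14 members higher, 11 rising and a median difference of 2.11. Wnt2, a WNT ligand of mesenchyme, read 6.98 in the healthy array, 6.03 in the sham array, 7.29 at 1.7 mM, 9.05 at 8.5 mM and 8.84 at 17 mM (8.5 mM against sham 3.02; limma SE 0.32, adjusted p = 0.0287). The 8.5 mM array was the highest of the 5, by 0.21. The ligand Bmp5 differed by 2.86, Dkk3, a dickkopf-family protein, by 2.75, the WNT-binding protein Sfrp2 by 2.67 and the ligand Bmp4 by 2.60. Of the 14, 11 were above both sham and healthy, 5 of them by 2-fold.

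Endothelial transcripts were higher in 8 of 14 cases, with 9 rising and a median of 1.06, and 13 of the 14 exceeded both sham and healthy. Lyve1, a hyaluronan receptor of lymphatic vessels, read 7.21 in the healthy array, 5.79 in the sham array, 8.22 at 1.7 mM, 7.97 at 8.5 mM and 8.20 at 17 mM, so that its 3 treated arrays were alike. Sox17, an arterial transcription factor, differed by 1.67, Tek, the angiopoietin receptor, by 1.66, Sox18 by 1.30 and Cldn5, the claudin of vessels, by 1.26.

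**Figure D2:**
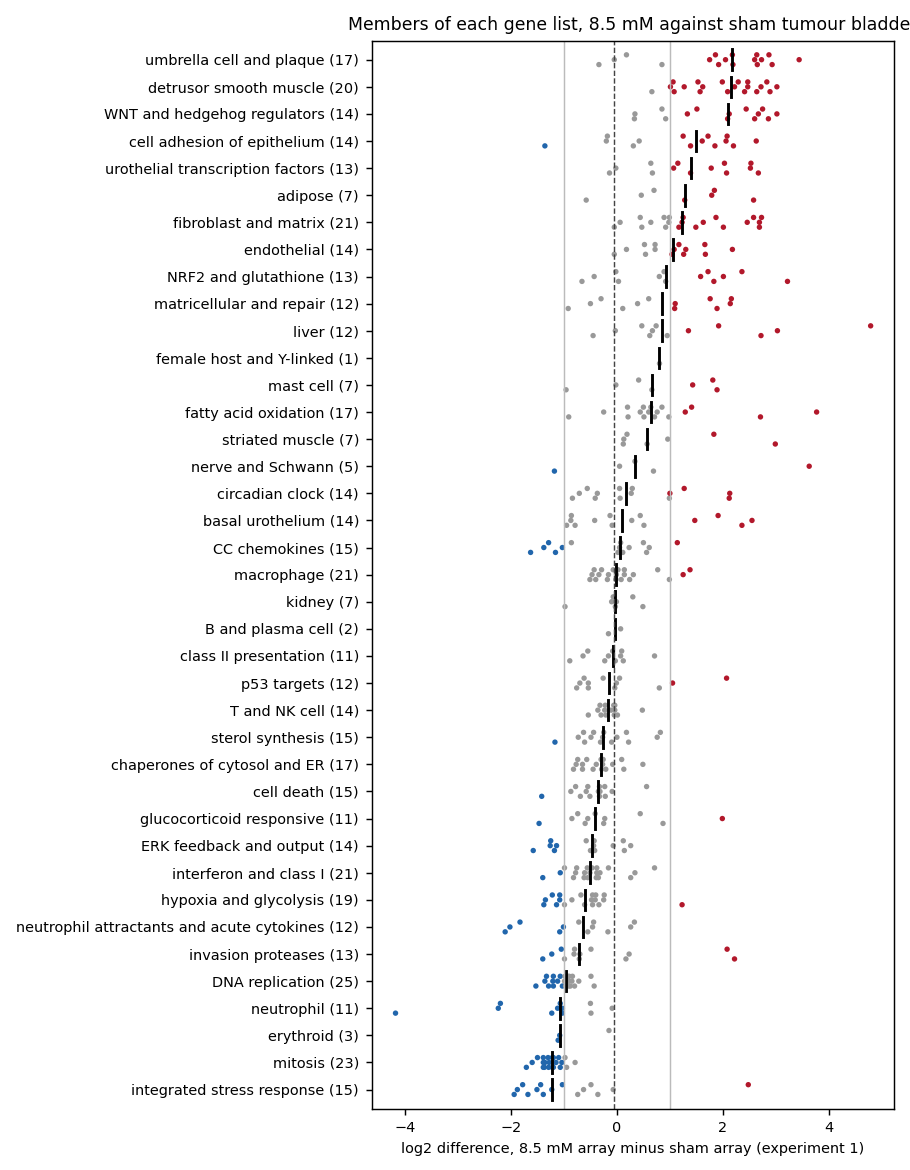
Differences of 8.5 mM minus sham (log2, 1 array a side) for the members above the filter of each of the 39 lists (points; red and blue past 2-fold, grey otherwise), with the list medians as black bars and the median of all genes as a dashed line. Umbrella cell (2.18), detrusor (2.16) and WNT and hedgehog (2.11) medians lie highest, and mitosis (-1.22) and integrated stress response (-1.23) medians lowest.

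Over all genes, 143 (1.19%) were 2-fold above both the sham and the healthy array at 8.5 mM, and 1 was 2-fold below both, the zinc transporter gene Slc39a8 (-1.03). The genes of this paragraph were named after their values were seen. Leaving aside liver transcripts, the farthest above was Chodl, a lectin-like membrane protein, at 5.02 in the healthy, 4.60 in the sham and 7.88 in the 8.5 mM array. Epha3, an ephrin receptor, stood 2.66 above the higher of the untreated arrays, Spon2, a matrix protein, 2.62 (its probe sets differed from sham by 1.22 to 2.62), Dkk2, a WNT antagonist, 2.12, and Tcf21, a transcription factor of mesenchyme, 1.94. Asz1 (2.48), Vstm4 (2.10) and Lbp (2.04) ranked between Spon2 and Tcf21, and the probe sets of Lbp differed from sham by 0.7 to 2.2. Col1a1, a chain of type I collagen, read 8.92 in the healthy, 8.98 in the sham and 10.99 in the 8.5 mM array (limma adjusted p = 0.0684). The 17 mM levels of these genes ran from 6.64 for Epha3 to 11.10 for Col1a1, each also above sham and healthy.

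**Figure D3:**
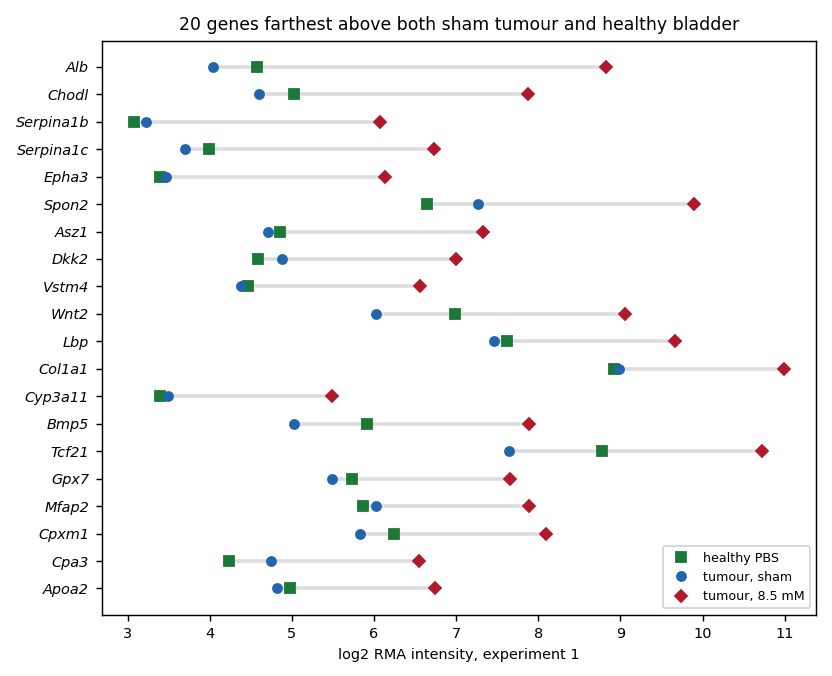
Log2 signal in the healthy, sham and 8.5 mM arrays of experiment 1 (1 marker an array) for the 20 genes standing farthest above both untreated arrays. The list runs from Alb, 4.26 above the higher of them, to Apoa2, 1.76 above it, and stromal genes such as Wnt2 and Col1a1 stand beside liver genes such as Serpina1c.

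Transcripts of dividing cells were lower. Of 23 mitosis genes 20 were lower and none higher at 8.5 mM, 8 fell by limma and the median difference was -1.22, against -4.37 for healthy minus sham. Mki67, the proliferation marker, read 3.72 in the healthy array, 9.64 in the sham array, 9.32 at 1.7 mM, 8.49 at 8.5 mM and 8.05 at 17 mM. The 8.5 mM level was 1.15 under the sham level (limma adjusted p = 0.0295, and 0.464 without the replicate block) and 4.77 above the healthy one. The kinesin Kif23 read -1.71, the checkpoint kinase Bub1 -1.50, the spindle kinase Aurka -1.39 and the kinesin Kif11 -1.39, with limma adjusted p between 0.066 and 0.105. The centromere motor Cenpe fell (-1.60). Of 25 DNA replication genes 10 were lower, none higher, 15 fell and the median was -0.97. They included the replication factors Cdc45 (-1.53) and Cdc6 (-1.29), thymidine kinase, Tk1 (-1.36), and the polymerase subunit Pole (-1.33), all of which fell, and Uhrf1, which maintains DNA methylation, at -1.21 (limma adjusted p = 0.0565).

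Many mitotic promoters hold a cell cycle genes homology region, CHR (TTTGAA, both strands), which the DREAM complex binds. It was found in the 250 bases before the start of 9 of the 19 mitosis genes in the promoter table (47.4%) and in 13.1% of the genes above the filter, but also in 6 of 12 fibroblast and matrix genes (50%) and in 2 of 20 replication genes (10.0%). The CCAAT box (CCAAT, both strands) was in 16 of the 19 mitosis genes (84.2%), 14 of the 20 replication genes (70.0%) and 39.8% of the genes above the filter. The following stretches are shown for the 7 mitosis genes with a CHR within 33 bases of the start, with that CHR in capitals. In order of distance they belong to the mitotic kinase Cdk1 (chr10:69352913-69352947, minus strand), the mitotic ubiquitin ligase activator Cdc20 (chr4:118437344-118437381, minus strand), Kif11 (chr19:37376343-37376381, plus strand), the topoisomerase Top2a (chr11:99024190-99024232, minus strand), the ubiquitin-conjugating enzyme Ube2c (chr2:164769880-164769925, plus strand), the spindle midzone protein Prc1 (chr7:80294426-80294471, plus strand) and the abscission protein Cep55 (chr19:38054988-38055033, plus strand), again from RefSeq's table in build GRCm38.p6.
Cdk1: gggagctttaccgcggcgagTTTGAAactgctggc
Cdc20: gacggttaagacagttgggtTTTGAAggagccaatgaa
Kif11: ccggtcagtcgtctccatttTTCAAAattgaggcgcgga
Top2a: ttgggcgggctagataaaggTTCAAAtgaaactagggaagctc
Ube2c: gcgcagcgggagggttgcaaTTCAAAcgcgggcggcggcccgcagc
Prc1: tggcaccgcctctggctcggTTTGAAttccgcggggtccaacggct
Cep55: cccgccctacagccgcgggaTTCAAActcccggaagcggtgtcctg
These matches describe letters only.

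Several of the 12 lowest genes were nearly confined to the tumour arrays among the PBS samples. Nxf3, a member of the mRNA export factor family, read 3.02 in the healthy array, 7.75 in the sham array, 7.78 at 1.7 mM, 4.96 at 8.5 mM and 5.10 at 17 mM. Gm4836 read 2.65, 8.61, 8.63, 6.21 and 6.31 in the same order. The sham and 1.7 mM levels were nearly equal in both, and the 8.5 and 17 mM levels were nearly equal and lower. Prkg2, a cGMP-dependent kinase, differed by -2.19 (its probe sets by -2.19 to -0.36), the growth factor Fgf15 by -2.24, the WNT ligand Wnt10a by -2.19 and the sialyltransferase St6galnac5 by -2.19. Otos differed by -2.33 and Csprs by -2.45. All 8 fell, with limma adjusted p between 0.0253 and 0.0299. Wnt10a thus went against the ligands Wnt2, Bmp4 and Bmp5.

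Of 14 ERK feedback and output genes 5 were lower and the same number fell (median -0.47): the AP-1 factor Fosl1 (-1.58), the EGF-family ligand Hbegf (-1.26), the phosphatases Dusp4 (-1.25) and Dusp6 (-1.18), and Myc (-1.14). Of 15 genes of the integrated stress response, which ATF4 drives when amino acids or protein folding fail, 9 were lower, 8 fell and the median was -1.23. Trib3, a pseudokinase and ATF4 target, read 4.64 in the healthy array, 7.27 in the sham array, 6.78 at 1.7 mM, 5.33 at 8.5 mM and 5.37 at 17 mM. The serine synthesis enzyme Psph differed by -1.88, the mitochondrial folate enzyme Aldh1l2 by -1.78 and Chac1, which degrades glutathione, by -1.68. Vldlr, a lipoprotein receptor also expressed in healthy bladder (6.84), went the other way (2.48; limma adjusted p = 0.0774). Of 17 chaperones of cytosol and endoplasmic reticulum none was 2-fold different, and 1 fell, Hsph1 (-0.82), with a list median of -0.30.

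Among 19 hypoxia and glycolysis genes 6 were lower, 1 higher, 8 fell, 1 rose and the median was -0.61. The oxidoreductase Ero1a differed by -1.38, the vasodilator peptide gene Adm by -1.35, the hexokinase Hk2 by -1.22 and Car9, a carbonic anhydrase of hypoxic cells, by -1.14. The member that rose, P4ha2 (1.23), encodes a prolyl hydroxylase that modifies collagen. The invasion proteases and their inhibitors were divided, with 2 of 13 higher and 3 lower (2 rose, 4 fell, median -0.71). Mmp2, a gelatinase made by stroma, rose (2.22), as did Timp3, a protease inhibitor (2.08), while the collagenase Mmp13 fell (-1.40) and so did Adam8 (-1.23). Mmp12, a macrophage elastase, read -1.05 (limma adjusted p = 0.801).

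Neutrophil transcripts were lower at 8.5 mM. Of 11 genes 8 were lower, none higher, 4 fell and the median was -1.07. Lcn2, an iron-binding protein of neutrophils and inflamed epithelium, had the largest decrease of all genes. It read 4.65 in the healthy array, 8.09 in the sham array, 8.33 at 1.7 mM, 3.91 at 8.5 mM and 4.18 at 17 mM. The 8.5 and 17 mM arrays were below the healthy array of experiment 1, but near the filter value of 4.16. The healthy PBS array of experiment 2 read 3.52. At 8.5 mM the difference from sham was -4.18 (limma difference -4.30). The calprotectin subunit S100a8 had another order, reading 3.38 in the healthy array, 10.14 in the sham array, 8.17 at 1.7 mM, 7.90 at 8.5 mM and 8.01 at 17 mM. All 3 treated levels were alike and far above healthy. Its partner S100a9 differed by -2.2, the receptor Fpr2 by -1.12 (limma adjusted p = 0.507) and the growth factor receptor Csf3r by -1.23 (limma adjusted p = 0.0609). Against the sham array of experiment 2 the median of the neutrophil list was -0.64. Stfa2l1, a stefin-family protease inhibitor, read 7.30 in the sham array of experiment 1 and 5.16 in that of experiment 2, against 4.21 at 8.5 mM. For Stfa2l1 and Lcn2 the experiment 2 levels are as deposited and on a lower scale. The median signal was 4.43 in the sham array of experiment 1 and 4.21 in that of experiment 2.

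Of 12 neutrophil attractants and acute cytokines 5 were lower and 3 fell (median -0.64, or -0.46 with no filter). The chemokine Cxcl1 differed by -2.11, Csf3, the growth factor of neutrophils, by -2.02 and the chemokine Cxcl2 by -1.83. Il1b differed by -1.01 (limma adjusted p = 0.459), and with the sham array of experiment 2 in place of that of experiment 1 the difference was 0.54. Il6, a member of the list left out by the filter on low signal, went the other way. At 8.5 mM it lay 1.19 above its sham level of 4.41, and at 17 mM it read 4.32. Cxcl5 and Il1a, also left out by the filter, differed by -0.45 and -0.37. These members were named after their values were seen. The CC chemokines had 5 of 15 lower and 1 higher, and the median was 0.05, or -0.41 with the lowest 50% of genes left out. The monocyte attractants Ccl12 (-1.63), Ccl2 (-1.29) and Ccl7 (-1.03), Ccl3 (-1.38) and the receptor Ccr1 (-1.16) were lower with limma adjusted p from 0.0739 to 0.264. Ccl8, a chemokine of tissue macrophages, rose from 9.86 in the sham array to 11.00 at 8.5 mM (6.94 in the healthy array).

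Lymphocyte transcripts gave no difference past 2-fold. None of the 14 T and NK cell genes was 2-fold higher or lower or passed limma, and the median was -0.16. Gzmg, a granzyme of activated cytotoxic cells, read 2.77 in the healthy array, 7.2 in the sham array, 7.70 at 1.7 mM, 6.66 at 8.5 mM and 3.34 at 17 mM (8.5 mM against sham -0.54, limma adjusted p = 0.868). The level at 8.5 mM lay under those of sham and 1.7 mM, and the 17 mM level was the lowest of the tumour arrays. Gzma read 7.44, 7.92 and 6.55 in the sham, 8.5 mM and 17 mM arrays, and Gzmf read 7.26, 6.90 and 5.63. With the sham array of experiment 2 in place of that of experiment 1, the median of the list turned from -0.16 to 0.40 and the difference of Gzmf from -0.36 to 2.34. The T cell coreceptor chains Cd8a and Cd8b1 differed by -0.32 and -0.30. With 1 array a dose this contrast between 8.5 and 17 mM was not tested. The 2 B cell genes kept, Cd79a and Cd22, differed by 0.07 and -0.16.

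Interferon and class I genes had 2 of 21 lower, none higher, 4 falling and a median of -0.51 (-0.28 against the sham array of experiment 2). Nlrc5, the activator of class I genes, fell (-1.07), as did the antiviral Rsad2 (-0.99) and the immunoproteasome subunit Psmb9 (-0.78). Ido1, a tryptophan-degrading enzyme, read -1.40 (limma adjusted p = 0.186) and Cd274, the ligand PD-L1, -0.82 (limma adjusted p = 0.240). Of 11 class II genes none was 2-fold different (median -0.08).

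Of 21 macrophage genes 2 were higher, near the share among all genes, none was lower, 3 rose and the median was -0.01. Cd163, a scavenger receptor of tissue macrophages, read 5.28 in the healthy array, 6.14 in the sham array, 8.03 at 1.7 mM, 7.39 at 8.5 mM and 7.83 at 17 mM (8.5 mM against sham 1.25; limma adjusted p = 0.0463). Folr2, a folate receptor of resident macrophages, rose by 1.38, and Apoe, a lipid carrier, by 0.77. Arg1, an arginase of macrophages in tumours, read 8.64 in the sham, 8.13 in the 8.5 mM and 6.98 in the 17 mM array. Mast cell genes had 3 of 7 higher, the same number rising and a median of 0.66 (1.54 against the sham array of experiment 2). Cpa3, a carboxypeptidase of mast cell granules, read 4.24 in the healthy array, 4.74 in the sham array and 6.55 at 8.5 mM, and the chymase Cma1 differed by 1.43. The third, Gata2, a transcription factor that urothelium and endothelium also use, differed by 1.89 and was high in healthy bladder (8.94). Hdc, the histamine-forming enzyme, read -0.96 (limma adjusted p = 0.203).

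Of 13 NRF2 and glutathione genes 6 were higher, none lower, 8 rose and the median was 0.92. Nqo1, a quinone reductase, read 9.00 in the healthy array, 4.55 in the sham array, 5.78 at 1.7 mM, 7.77 at 8.5 mM and 8.41 at 17 mM. The glutathione transferases Gstm2, Gsta4 and Gstm1 differed by 2.36, 2.01 and 1.83, and the peroxidase Gpx2 by 1.72. All of them were high in healthy bladder. Among 17 genes of fatty acid oxidation 4 were higher, 6 rose and the median was 0.64. Besides Acaa1b these included Pdk4, a brake on glucose oxidation (2.71), the fatty acid carrier Cd36 (1.41) and the thiolase Acaa2 (1.29). Of 15 sterol genes 1 was lower (6.67%, beside 3.95% of all genes), Dhcr7, the last step to cholesterol (-1.17). Cyp51 read -0.73.

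Clock and glucocorticoid genes were measured because they move with the time of day and with stress at collection. Of 14 clock genes 4 were higher, 4 rose, 1 fell and the median was 0.17. Dbp, a clock output factor, read 8.62 in the healthy array, 4.63 in the sham array, 5.98 at 1.7 mM, 6.75 at 8.5 mM and 8.24 at 17 mM, and Npas2 differed by 2.13. Of 11 glucocorticoid-responsive genes, 1 was higher, Klf9 (1.99, its probe sets 0.03 to 2.01), and 1 lower, Fkbp5 (-1.47), with a median of -0.41. Among all genes 10.2% were higher and 3.95% lower, and the share of higher genes in the list was near the former. Fkbp5, a chaperone partner of the glucocorticoid receptor, read 9.26 in the sham array, 10.53 at 1.7 mM and 7.79 at 8.5 mM, and Tsc22d3, a direct target of the hormone, 8.75, 10.99 and 8.20. The 1.7 mM array was the high one, with a list median of 1.27 over sham. The part of the time of day or stress in the results was not tested. In the p53 list that follows 16.7% of members were higher, beside 10.2% of all genes. In the cell death list 6.67% were lower, beside 3.95% of all genes. Of 12 p53 targets 2 were higher and rose, Phlda3 (2.07) and Trp53inp1 (1.05), and the median was -0.15. Of 15 cell death genes 1 was lower, the inflammatory caspase Casp1 (-1.42, limma adjusted p = 0.0768), none passed limma and the median was -0.35.

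Transcripts of liver stood high in the 8.5 mM array. Alb, serum albumin, read 4.57 in the healthy array, 4.04 in the sham array, 3.87 at 1.7 mM, 8.83 at 8.5 mM and 10.15 at 17 mM, and 8.80 in the array labelled healthy, 24 h. The difference from sham was 4.79 (limma difference 4.68, SE 0.20, adjusted p = 0.0253), and the 1.7 mM array and all PBS arrays were low. Serpina1c, an antitrypsin of mouse liver, differed by 3.03, Apoa2 by 1.92 and Apoa1 by 1.35. Ttr, the thyroxine carrier, differed by 2.72 but read 8.91 in the healthy array. Of 12 liver genes 5 were higher, none lower, 6 rose and the median was 0.85 (1.92 with the lowest 50% of genes left out). The log2 of their summed signal was 10.23 in the healthy, 9.06 in the sham, 9.01 in the 1.7 mM, 10.52 in the 8.5 mM and 11.42 in the 17 mM array, and the part of liver RNA in the other results was not tested. Kidney genes had a summed signal of 10.41 in log2 in the healthy array of experiment 1, against 7.49 in the sham and 7.47 in the 8.5 mM array. None of the 7 was 2-fold different at 8.5 mM.

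Of 7 adipose genes 4 were higher and rose (median 1.28), namely the lipid droplet protein Plin4 (2.58), the lipid binder Fabp4 (1.84), the carbonic anhydrase Car3 (1.79) and adiponectin, Adipoq (1.28). The summed signal of the list was 11.69 in log2 in the sham, 13.06 in the 8.5 mM and 13.12 in the healthy array. Probe sets of Fabp4 ranged from 0.67 to 2.14 and those of Car3 from 0.84 to 2.34. Of 5 nerve and Schwann genes 1 rose, Uchl1, and 1 fell, the neurotrophin receptor Ngfr (-1.18), while Sox10 and Mbp, which define Schwann cells, read 0.34 and 0.69. Of 3 erythroid genes the haem enzyme Alas2 (-1.08) and the anion exchanger Slc4a1 (-1.11) were lower, and neither passed limma. Xist, the RNA that silences 1 X chromosome in female cells, read 10.32 in the healthy array, 9.15 in the sham array, 9.26 at 1.7 mM, 9.95 at 8.5 mM and 10.21 at 17 mM. It thus lay between sham and healthy at 8.5 mM (0.80; limma adjusted p = 0.0410, and 0.548 without the replicate block). The part of fat, nerve, blood or the share of host cells in the gene groups above was not tested.

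The tumour and healthy arrays of experiment 2 share no array with the comparison, and genes were chosen on them without it. In that experiment 601 genes were 4-fold or more above the healthy bladder in the sham-treated tumour, and 310 of them (51.6%) were 2-fold lower at 8.5 mM and 2 were 2-fold higher. Their median difference was -1.02 (quartiles -1.33 and -0.68), beside a median of 3.01 for sham minus healthy in experiment 1, so that 8.5 mM remained a median of 2.07 above healthy. Of the 691 genes at least 4-fold lower in that tumour, 626 (90.6%) were 2-fold higher at 8.5 mM and none was 2-fold lower. Their median difference was 1.86 (quartiles 1.33 and 2.39), beside -2.59 for sham minus healthy, which left 8.5 mM a median of 0.89 under healthy. Across all 11969 genes, which are not independent replicates, Pearson's r between the 2 differences was -0.833 and Spearman's rho -0.839.

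**Figure D4:**
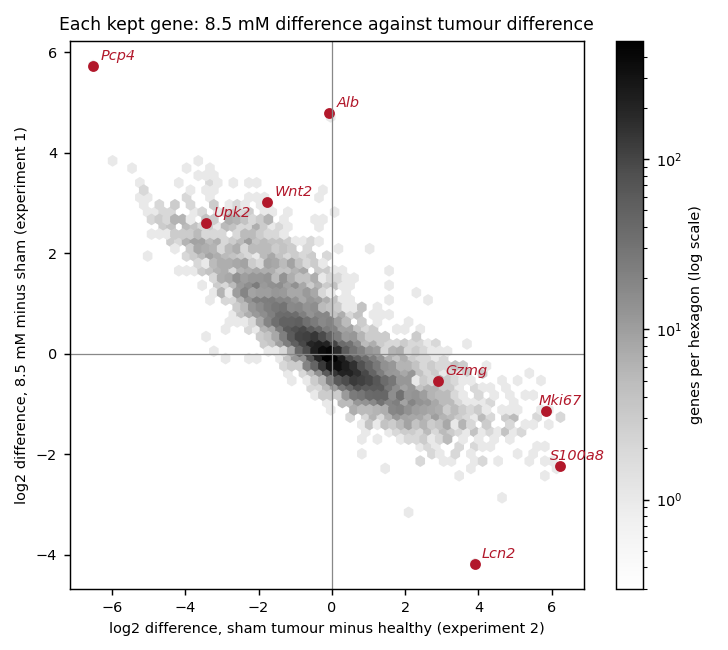
Each of 11969 genes by its sham tumour minus healthy difference in experiment 2 (x axis, log2) and its 8.5 mM minus sham difference in experiment 1 (y axis, log2), shaded by genes per hexagon on a log scale, with 8 genes in red. The cloud runs from upper left to lower right (r = -0.833), with Alb (4.79) far above it and Lcn2 (-4.18) far below.

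The 3 doses share the sham array, so their differences from it are given side by side. The genes higher in the tumour of experiment 2 had median differences of -0.25 at 1.7 mM, -1.02 at 8.5 mM and -1.40 at 17 mM, and those lower had 0.61, 1.86 and 2.14. The umbrella cell list read 0.72, 2.18 and 2.30, the detrusor list 0.61, 2.16 and 2.46, the mitosis list -0.19, -1.22 and -1.71, and the T and NK list 0.23, -0.16 and -0.96. Levels of 36 genes were 2-fold apart between 17 and 8.5 mM, and of 1045 genes between 8.5 and 1.7 mM. At 8.5 mM no gene above the filter lay 2-fold outside the range of the other tumour arrays of experiment 1. The nearest were, above, Igkj1, an immunoglobulin light chain segment (0.81 above), the tubulin-binding Tppp3 (0.74), Ccl21b, a lymphoid chemokine (0.73), the interferon-induced Ifit3 (0.71), the apelin receptor Aplnr (0.61) and the chemokine Ccl22 (0.61). Below they were Stfa2l1 (-0.63), the neurotrophin Bdnf (-0.58), the matricellular Ccn1 (-0.50), Tsc22d3 (-0.49), Mtcl1 (-0.43) and Zgrf1 (-0.43).

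**Figure D5:**
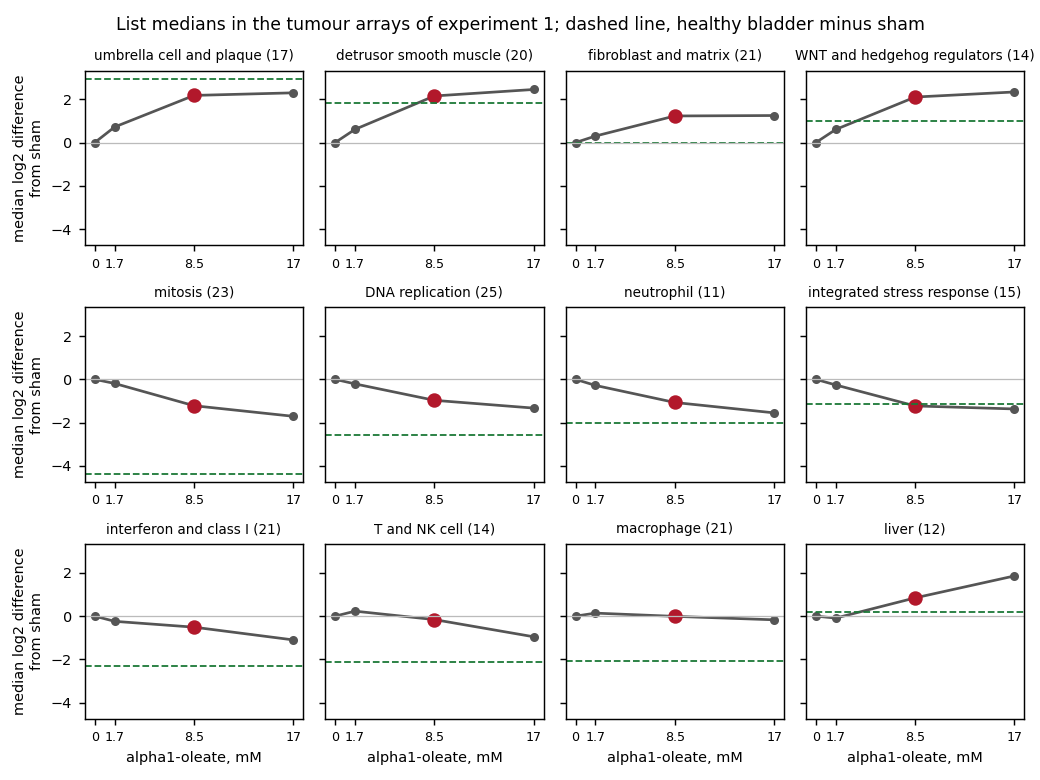
Median differences from the sham array (log2) of 12 gene lists at 1.7, 8.5 (red) and 17 mM, 1 array a dose with a shared sham array at 0 mM; the dashed line is healthy minus sham and the number of members is in brackets. The detrusor list reads 0.61, 2.16 and 2.46, the mitosis list stays far above its healthy line (-4.37), and the T and NK list reads -0.16 at 8.5 mM and -0.96 at 17 mM.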

How the data were processed

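The authors deposited log2 RMA signals of 45077 probe sets of an Affymetrix mouse PM array for 9 arrays in 7 groups. The submitters' processing notes name Transcriptome Analysis Console 4.0.1.36 and RMA. Genome build and read-out of single probes were not given in the sources used here. Per the labels' protocols, frozen bladders were pulverized, RNA was purified on RNeasy columns and labelled with a 3' IVT kit. The number of arrays limits the precision.

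Probe sets naming 1 gene (28898; 551 named several, 15588 none, and 40 were controls) were kept, 28689 of them matched to RefSeq's gene table by gene ID. The probe set with the highest mean stood for a gene (7180 genes had several), and genes in the lowest 30% (below 4.16) were left out, which kept 11969 of 17097. RMA equalizes distributions within an experiment (sorted values deviated by 0.022 within and 0.329 between experiments), so differences were taken within experiment 1. The limma fit (lmFit, eBayes, Benjamini-Hochberg) used 7 groups and the experiment as a block, with 2.23 prior degrees of freedom. Same-numbered PBS arrays deviated together (correlation 0.647), the number being the experiment in the labels. The fit was tested on simulated data.

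The gene lists (39 lists, 653 names, 578 measured, 518 above the filter) and the comparison were chosen with earlier results of these data known. Named were the 12 highest and 12 lowest genes, up to 5 members of each list by size and those of opposite sign past 2-fold, the 6 highest and 6 lowest outside the other tumour arrays, and 10 fixed genes. Promoter sequences are RefSeq's (GRCm38.p6). Alternatives were another normalization, probe choice, filter, fold, variance trend, no block, the other sham array, and single arrays left out. Software was limma 3.58.1 in R 4.3.3, and in Python 3.11.15 pandas 2.3.3, numpy 2.4.6 and matplotlib 3.10.9.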

Additional observations from a re-analysis of the deposited data

How the results depend on the processing

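The number of higher genes was 1941 at 1.5-fold and 389 at 4-fold, and of lower genes 1465 and 23, or 288 with the lowest 50% left out. By limma the falling genes numbered 1452 with joint quantile normalization (1823 rising), 354 with no filter, 279 with an added 2-fold requirement, and 41 without the replicate block (904 rising), or 278 without it after joint normalization. With a PBS array left out the block could not be fitted, so those fits had none and used joint normalization. Their reference is the fit on all arrays of that kind, with 974 rising and 278 falling genes. The range that follows therefore mixes fits with and without the block. Leaving out the 24 h or 7 day array cannot change the 8.5 mM comparison except through probe choice and filter. Leaving out 1 array at a time gave 431 to 1315 rising and 34 to 559 falling genes. The lowest of both came without the sham array of experiment 2, and without that of experiment 1 they were 745 and 108; without either healthy PBS array they were 769 and 161. The median of tumour-higher genes was -0.72 when chosen at 2-fold and -1.22 at 8-fold, and that of tumour-lower genes 1.12 and 2.26. Il1b reversed, from -1.01 to 0.54, with the sham array of experiment 2 in place. Of the genes past 2-fold, 601 had several probe sets above the filter value. Every probe set passed 2-fold the same way in 308 of them, and 37 had probe sets of opposite sign. A gene named without a range can also have probe sets that differ, such as Vldlr (0.69 to 2.48) and Aplnr (0.28 to 1.02). The 12 list medians past 2-fold kept their sign under 5 alternatives. Other list medians moved by over 1.5 times or turned. With the lowest 50% left out these were the CC chemokine (0.05 to -0.41), basal (0.10 to -0.13), mast cell (0.66 to 1.15), class II (-0.08 to -0.23) and liver (0.85 to 1.92) lists. With the mean of probe sets they were the NRF2 (0.92 to 1.58), matricellular (0.85 to 0.52), chaperone (-0.30 to -0.51) and nerve (0.34 to 0.05) lists. With the sham array of experiment 2 they were the erythroid (-1.08 to -1.84), kidney (-0.03 to -0.44), Xist (0.80 to 0.42), macrophage (-0.01 to 0.14), sterol (-0.27 to -0.15) and clock (0.17 to 0.27) lists, beside those named in the report. The lists named here are examples, and further medians moved as well.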
